A study of Mus musculus with 2 samples.

Results

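The 84 genes described here code for heat shock proteins, their J-protein partners, the chaperones and disulfide isomerases of the endoplasmic reticulum (ER), and 3 transcription factors of the ER and integrated stress responses. They were chosen by name among the 31821 gene names of a mouse whole-genome array: names starting with Hspa, Hspb, Hsph, Hsp90, Dnaja, Dnajb, Dnajc or Pdia, together with *Calr*, *Canx*, *Hspd1*, *Hspe1*, *P4hb*, *Ddit3*, *Xbp1* and *Atf4*. Each gene was represented by its brightest probe, out of 117 probes in all. The names *Hspbp1* (an exchange factor of HSP70) and *Hspbap1* enter through their first letters and are not small heat shock proteins.

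The study compared mice aged 2 months of 2 genotypes: *Cnnm2*fl/fl;*Six2-Cre*, in which both copies of *Cnnm2* (a membrane protein of magnesium transport) are removed in the kidney, and *Cnnm2*+/+;*Six2-Cre* as control, and asked which kidney transcripts differ when *Cnnm2* is lost. Both genotypes carry *Six2-Cre*, a Cre recombinase fused to GFP that acts in the embryonic nephron progenitors, so cells of other origin in the kidney keep the floxed gene, and total RNA was taken from whole kidneys. Knockout and control RNA were hybridized together on 2 arrays with the dyes exchanged: knockout RNA was labelled with Cy5 (red) on array 1 and with Cy3 (green) on array 2. The number of mice is not given in the sources used here, and the arrays were treated as labelling repeats of 1 RNA sample per genotype.

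Consequently genes were counted by size and no result here rests on a test between genotypes. The ± values are the SD of the 2 arrays, which covers labelling and hybridization and not the spread between mice. Because the dyes were exchanged, this SD also holds a gene's contrast between red and green, which the mean of both arrays is meant to cancel. It is therefore not the error of the mean. A ratio is the log2 of the processed signal of knockout over control, so 1 stands for a 2-fold higher signal in the knockout. A gene was measured, for this purpose, when its probe was well above the local background on both arrays for at least 1 genotype. It was counted as higher or lower when the mean ratio of both arrays reached 2-fold (or, as a second limit, 1.5-fold) and both arrays had the same sign. In whole-kidney RNA, fewer cells of a type and less RNA per cell cannot be told apart.

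*Cnnm2* itself had ratios of -2.88 on array 1 and -2.46 on array 2 (mean -2.67 ± 0.30), which is 6.36-fold lower in the channel labelled knockout on average. All 8 kidney markers examined, among them *Umod*, *Slc12a1* and *Lrp2*, were well above background, with a median ratio of 0.030. The dyes weighed heavily on these arrays: over the 19708 genes measured, the ratios of array 1 and array 2, both turned to knockout over control, correlated with Pearson's r of -0.51, which describes genes and not replicates. Over the 76 chaperone genes measured it was -0.39. A difference that changes sign with the dye is therefore not read as a difference between genotypes below.

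Chaperones help other proteins to fold. HSP70 proteins bind exposed stretches of unfolded proteins in cycles of ATP hydrolysis that J proteins start and exchange factors end, HSP90 acts later on signalling proteins, and small heat shock proteins hold unfolded proteins without ATP. Heat and other protein-damaging stress activate the transcription factor HSF1, which binds heat shock elements, inverted repeats of the unit nGAAn, in front of the cytosolic genes. In the ER, the HSP70 BiP (*Hspa5*), the HSP90 GRP94 (*Hsp90b1*), the lectin chaperones calnexin and calreticulin and the disulfide isomerases fold secreted and membrane proteins, and the unfolded protein response raises them through ATF6, XBP1 and ATF4, the first through the ER stress response element.

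The upstream sequences of members of both classes are shown because the results below are read by these classes. They are the 250 bases before the annotated start in the RefSeq promoter table (GRCm38.p6), 5′ to 3′ on the gene's strand. In the first 3, capitals mark inverted pairs GAANNTTC or TTCNNGAA; in the last 3, capitals mark both arms of the ER stress response element, CCAAT and CCACG separated by 9 bases of any kind. The window of *Hspa1a* lies at chr17:34972157-34972406 (minus strand), *Hspa1b* at chr17:34959239-34959488 (minus strand), *Hspb1* at chr5:135887669-135887918 (plus strand), *Hspa5* at chr2:34771840-34772089 (plus strand), *Hsp90b1* at chr10:86705445-86705694 (minus strand) and *Pdia6* at chr12:17266339-17266588 (plus strand).
Hspa1a: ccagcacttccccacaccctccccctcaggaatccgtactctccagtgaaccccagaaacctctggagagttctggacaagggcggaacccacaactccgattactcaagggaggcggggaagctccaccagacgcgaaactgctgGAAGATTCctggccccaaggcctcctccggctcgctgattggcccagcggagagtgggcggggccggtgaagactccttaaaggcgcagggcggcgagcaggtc
Hspa1b: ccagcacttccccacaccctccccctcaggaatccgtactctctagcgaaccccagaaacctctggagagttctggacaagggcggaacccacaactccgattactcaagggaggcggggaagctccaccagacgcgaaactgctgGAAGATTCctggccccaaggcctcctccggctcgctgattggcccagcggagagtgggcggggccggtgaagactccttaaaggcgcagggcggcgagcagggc
Hspb1: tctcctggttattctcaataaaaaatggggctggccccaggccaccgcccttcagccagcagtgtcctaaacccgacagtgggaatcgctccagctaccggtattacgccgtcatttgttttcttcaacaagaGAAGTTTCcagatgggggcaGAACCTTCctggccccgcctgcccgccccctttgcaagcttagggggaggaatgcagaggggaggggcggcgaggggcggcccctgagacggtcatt
Hspa5: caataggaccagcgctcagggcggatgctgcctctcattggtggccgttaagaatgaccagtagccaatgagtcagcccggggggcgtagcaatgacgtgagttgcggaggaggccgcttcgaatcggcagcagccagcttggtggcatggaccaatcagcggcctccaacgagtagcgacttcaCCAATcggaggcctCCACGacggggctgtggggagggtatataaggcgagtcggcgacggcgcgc
Hsp90b1: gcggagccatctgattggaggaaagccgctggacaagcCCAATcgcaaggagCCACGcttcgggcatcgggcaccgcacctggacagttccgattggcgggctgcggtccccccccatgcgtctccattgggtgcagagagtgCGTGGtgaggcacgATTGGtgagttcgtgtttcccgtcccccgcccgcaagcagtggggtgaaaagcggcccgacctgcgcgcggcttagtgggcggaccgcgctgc
Pdia6: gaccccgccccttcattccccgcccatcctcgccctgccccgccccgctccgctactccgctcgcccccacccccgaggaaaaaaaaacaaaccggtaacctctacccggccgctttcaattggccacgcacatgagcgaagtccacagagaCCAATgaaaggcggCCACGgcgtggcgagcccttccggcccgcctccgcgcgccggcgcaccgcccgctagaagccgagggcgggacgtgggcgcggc

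Searched on both strands, a GAANNTTC or TTCNNGAA pair was in 12.8% of all 32851 upstream windows of the table, and the ER stress response element in 0.113%. The pairs were letters alone, may overlap each other, and do not stand for sites in use. Of the 70 members with a window, 13 held a heat shock pair and 6 the ER element: *Calr*, *Canx*, *Dnajc3*, *Hsp90b1* (with 2 matches), *Hspa5* and *Pdia6*. The 70 members have 87 windows, and a gene was counted for a match in any of its windows. These counts of genes are therefore not in the same unit as the shares of windows. The windows of *Hspa1a* and *Hspa1b* had the same letter at 247 of 250 positions.

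Of the 84 genes, 76 were measured, and all of these were well above background in both genotypes. The other 8 were not well above background in either genotype: *Dnajb7*, *Dnajb8*, *Dnajb13*, *Dnajc5b*, *Dnajc5g*, *Dnajc27*, *Hspb3* and *Hspbap1*. No probe carried the name *Hspa1b*.

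Of the 76 genes, 2 were counted as 2-fold higher in the knockout, *Hspa1a* and *Pdia2*, against 0.315% of all genes measured. At 2-fold, 0 were lower, where 0.284% of all genes were. The 1.5-fold limit added none: the same 2 genes were higher, against 1% of all genes, and 0 were lower, against 1.06%. Most of the chaperone genes were close to a ratio of 0, with 66 of 76 means (86.8%) within 0.2 of it, next to 78.7% of all genes measured; among genes with a mean log2 signal of at least 8, these shares were 90.6% of 64 members and 87.2%. The median ratio of the 76 genes was -0.0072, next to -0.0081 for all genes measured, and was 0.078 on array 1 and -0.050 on array 2.

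Small differences of the same sign on both arrays were counted as well. Of the 76 genes, 7 were higher on both arrays at any size, against 12.1% of all genes measured, and 7 were lower on both, against 15.6%. The 7 higher ones were *Hspa1a*, *Pdia2*, *Hspb2*, *Dnajb4*, *Dnajc22*, *Dnajc8* and *Dnajc30*. The 7 lower ones were *Canx*, *Hspa8*, *Hspa12b*, *Dnaja4*, *Dnajb14*, *Dnajc14* and *Dnajc15*. The remaining 62 changed sign with the dyes. These tallies depended on the scaling: with plain background subtraction and median-centred arrays, 5 genes were higher and 5 lower on both arrays, of which 3 (*Hspa1a*, *Pdia2* and *Dnajb4*) and 0 were among those named. In that setting 11% of all genes measured were higher and 13.1% lower on both arrays.

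**Figure D1:**
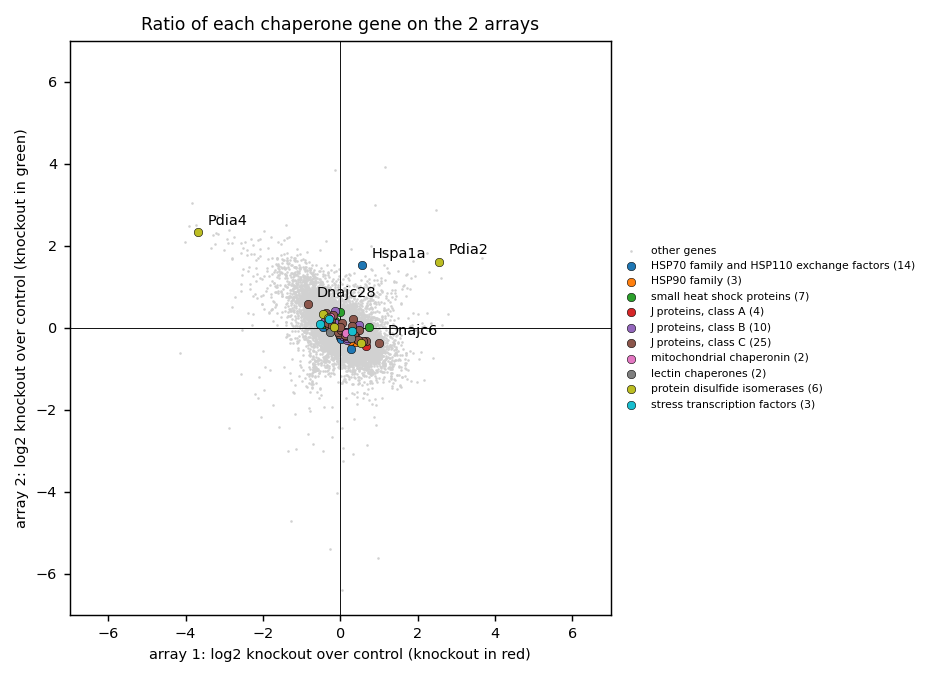
Log2 ratio of knockout over control on array 1 (x axis) and array 2 (y axis) for the 76 chaperone genes measured, coloured by role with the number of genes in brackets, and for all other genes measured (grey). Most chaperone genes lie near the origin along the falling diagonal on which the dyes place a gene; *Hspa1a* and *Pdia2* lie in the upper right field, and *Pdia4* at the upper left end.

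Among the HSP70 proteins and their exchange factors, *Hspa1a* was the one gene counted. *Hspa1a* codes for HSP70, the main stress-inducible member of the family. Its processed signals were 1148 for knockout against 770.3 for control RNA on array 1, and 1445 against 501 on array 2. Both knockout values were above both control values, and the ratios of 0.57 and 1.53 gave a mean of 1.05 ± 0.67, or 2.07-fold. The size rests largely on array 2: array 1 alone reached neither limit. The 60-base probe lies at chr17:35107117-35107176 on the minus strand (mm9, the build named in the file headers). Because *Hspa1a* and *Hspa1b* are near-identical copies, and only the name *Hspa1a* is on the array, which of the copies gave the signal was not tested.

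The other 13 genes of this group lay between -0.22 for *Hspa1l*, a dim testis-type gene next to *Hspa1a*, and 0.062 for *Hspa14*, a ribosome-bound HSP70. *Hspa8*, the constitutive cytosolic HSC70, had signals of 49181 and 43563 in the knockout and 51650.3 and 44644 in the control, and its ratios were -0.071 and -0.035. The 4 values differed little and the array SD was 0.025. *Hsph1* (HSP110), an exchange factor that HSF1 induces together with HSP70, had ratios of 0.016 and -0.28 (mean -0.13 ± 0.21). The mitochondrial HSP70 *Hspa9* had 0.33 and -0.23 (mean 0.049 ± 0.40).

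Of the other members that HSF1 is known to induce, none was counted at either limit. *Dnajb1* (HSP40), the main J-protein partner of HSP70 under stress, had signals of 11652 for knockout against 12906 for control RNA on array 1, and 11035 against 8319 on array 2, with ratios of opposite sign, -0.15 and 0.41, and a mean of 0.13 ± 0.39. *Hspb1* (HSP25), whose upstream window holds 2 heat shock pairs, had 7714 and 7336 in the knockout and 7737 and 5608 in the control, with ratios of -0.0043 and 0.39 and a mean of 0.19 ± 0.28. The inducible HSP90 gene *Hsp90aa1* had a mean of 0.025 ± 0.53 and the constitutive *Hsp90ab1* of 0.028 ± 0.40. *Dnaja1*, a J protein of the cytosol, had 0.035 ± 0.34. *Dnajb4*, another heat-inducible J protein, was higher on both arrays, 0.47 and 0.068, at a mean of 0.27 ± 0.29 that stayed under the 1.5-fold limit.

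Taking 11 cytosolic genes known to be heat-inducible or to work with HSP70, a grouping chosen with the values in view, the median ratio was 0.028 and the highest after *Hspa1a* was that of *Dnajb4*. Of the 11 measured genes with a heat shock pair upstream, the median was 0.0072, from -0.13 for *Hsph1* to 1.05 for *Hspa1a*. Immediate early genes, which respond to handling of tissue, were compared as well. Of 8 such genes, all measured, 0 were counted at 1.5-fold in either direction. *Egr1* had the lowest mean, -0.51, and *Jun* the highest, 0.22. Their summed signal was 8021 and 7243 in the knockout, and 7771 and 7048 in the control. Their part in the *Hspa1a* difference was not tested.

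**Figure D2:**
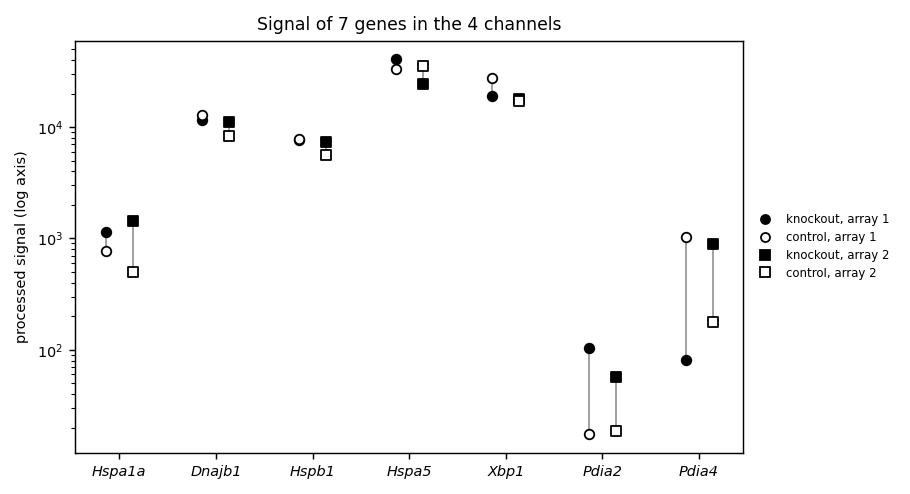
Processed signal (log axis) of 7 genes in the knockout (filled) and control (open) channels of array 1 (circles) and array 2 (squares), with a line joining the channels of 1 array. For *Hspa1a* and *Pdia2* the knockout lies above the control on both arrays, whereas for *Pdia4*, *Dnajb1*, *Hspb1*, *Hspa5* and *Xbp1* the order turns with the dyes.

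Small heat shock proteins are the first binders of unfolding proteins, and the name Hspb also covers *Hspb11*, a protein of the cilium. The highest ratio was that of *Hspb2*, a muscle-type member that neighbours *Cryab*, with ratios of 0.74 and 0.021 and a mean of 0.38 ± 0.51. Only array 1 showed a sizeable difference. The lowest was that of *Hspb7*, at -0.16 ± 0.37 with dim signals of 22.9 and 25.5 in the knockout and 30.7 and 23.8 in the control. Of the 7 genes measured in this group, 0 were counted at 1.5-fold, with a median of 0.022.

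J proteins bring client proteins to HSP70 and start its ATPase, and they are the largest class here. Of 39 measured, 4 of class A, 10 of class B and 25 of class C, 0 were counted at 1.5-fold. In class A the means ran from -0.045 for *Dnaja4* to 0.11 for *Dnaja2*. In class B they ran from -0.14 for *Dnajb2*, a neuronal J protein, to 0.27 for *Dnajb4*. In class C, the structurally most mixed class, they ran from -0.13 for *Dnajc28* to 0.31 for *Dnajc6* (auxilin, which uncoats clathrin vesicles). Both of these ends were dim genes whose arrays had opposite signs: *Dnajc28* had -0.84 and 0.58 and *Dnajc6* had 0.99 and -0.37. The arrays lay closer together for *Dnajc22*, a multi-pass membrane J protein, whose signals were 8514 for knockout against 6781 for control RNA on array 1, and 7812 against 6748 on array 2. Its ratios of 0.33 and 0.21 gave 0.27 ± 0.083, higher on both arrays and under 1.5-fold. With plain background subtraction and median-centred arrays, a setting without loess, they were 0.51 and -0.0011. With loess they were 0.29 and 0.24 without background correction, and 0.31 and 0.23 with normexp.

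The mitochondrial chaperonin genes had mean ratios close to 0. *Hspd1* (HSP60) and its lid *Hspe1* (HSP10) form the barrel in which imported matrix proteins fold, and share an upstream region. *Hspd1* had signals of 46814 for knockout against 42523 for control RNA on array 1, and 31090.5 against 34013 on array 2, with a mean ratio of 0.0045 ± 0.19. *Hspe1* had ratios of -0.27 and 0.26, with a mean of -0.00093 ± 0.37. The sign of each gene turned with the dyes, and the array SD holds this contrast between the dyes.

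In the ER, the genes that the unfolded protein response raises together were near a ratio of 0. BiP (*Hspa5*), its most used marker, had signals of 40459.5 for knockout against 33215 for control RNA on array 1, and 24272 against 35101 on array 2. The knockout was the higher channel on array 1 and the lower one on array 2, and the ratios of 0.28 and -0.53 gave -0.12 ± 0.58. GRP94 (*Hsp90b1*) had 0.26 and -0.34 (mean -0.039 ± 0.42), and calreticulin (*Calr*), a calcium-binding lectin chaperone, 0.29 and -0.25 (mean 0.020 ± 0.38). Calnexin (*Canx*), its membrane-bound relative, was lower on both arrays, -0.26 and -0.11, with a mean of -0.19 ± 0.11 under the 1.5-fold limit. With plain background subtraction and median-centred arrays, a setting without loess, the sign turned with the dyes, at 0.022 and -0.43. With loess the ratios were -0.25 and -0.11 without background correction, and -0.24 and -0.11 with normexp.

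None of the J-protein partners of BiP was counted. *Dnajb9* (ERdj4), a sensitive XBP1 target, had a mean of 0.042 ± 0.22. *Dnajb11* (ERdj3) had -0.072 ± 0.33. *Dnajc3* (p58IPK), which also restrains the kinase PERK, had 0.075 ± 0.53. The 6 genes with the ER stress response element in the upstream window had a median of -0.040, from -0.19 for *Canx* to 0.075 for *Dnajc3*, and none was counted.

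The protein disulfide isomerases, which form and shuffle disulfide bonds, held both extremes of the 76 genes. *P4hb* (PDI) had -0.46 and 0.34 (mean -0.061 ± 0.56), *Pdia3* (ERp57), the partner of the lectin chaperones, 0.53 and -0.36 (mean 0.083 ± 0.63), and *Pdia6* -0.31 and 0.23 (mean -0.041 ± 0.38). These are bright, and their arrays had opposite signs in each case.

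*Pdia2*, a disulfide isomerase known chiefly from the pancreas, had signals of 104 for knockout against 17.5 for control RNA on array 1, and 56.4 against 18.4 on array 2. Both knockout values were above both control values, and the ratios of 2.57 and 1.61 gave a mean of 2.09 ± 0.68, or 4.26-fold, the highest of the 76 genes. The gene was dim: before background subtraction the spot read 237 and 131 in the knockout and 73.0 and 88.3 in the control, against array background medians of 34 to 43.5. A second probe, at chr17:26332970-26333029 (mm9), shares 42 of its 60 bases with the first, at chr17:26332952-26333011, both on the minus strand. It had ratios of 3.28 and 1.59, and was not well above background in the control on both arrays. Its values are thus no separate measurement of another stretch of the transcript.

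The size of the *Pdia2* ratio depended on the background correction. With background left in, its mean lay at the 2-fold limit of 1, and with normexp correction and an offset of 50 it was 0.44, while *Hspa1a* had 1.01 and 0.87. The sign did not change in any of these settings. Pancreatic acinar cells, which neighbour the left kidney and express *Pdia2*, were checked by their own genes. Of 19 acinar genes on the array 8 were measured and 0 were counted at 1.5-fold, with a median ratio of -0.038. The measured ones included *Ctrb1*, *Clps*, *Amy2a5*, *Pnliprp1* and *Sycn*, so acinar transcripts were not absent from the arrays. The other 11, among them *Prss2*, *Pnlip*, *Cpa1*, *Cela2a* and *Cpb1*, were not well above background in either genotype. Of the 8 measured genes 3 were higher in the knockout on both arrays, as *Pdia2* was: *Cela1* (0.50 and 0.47), *Sycn* (0.34 and 0.38) and *Cel* (0.13 and 0.28). Another 2 were lower on both arrays, *Amy2a5* (-0.44 and -0.012) and *Pnliprp1* (-0.093 and -0.016), and 3 changed sign with the dyes. Among all genes measured, 12.1% were higher and 15.6% lower on both arrays. *Cela1*, *Cel* and *Amy2a5* were dim, and with normexp *Cela1* had a mean of 0.11. The part of acinar RNA in the *Pdia2* difference was not tested. The summed signal of the 19 genes was 774 and 671 in the knockout, and 721 and 603 in the control.

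**Figure D3:**
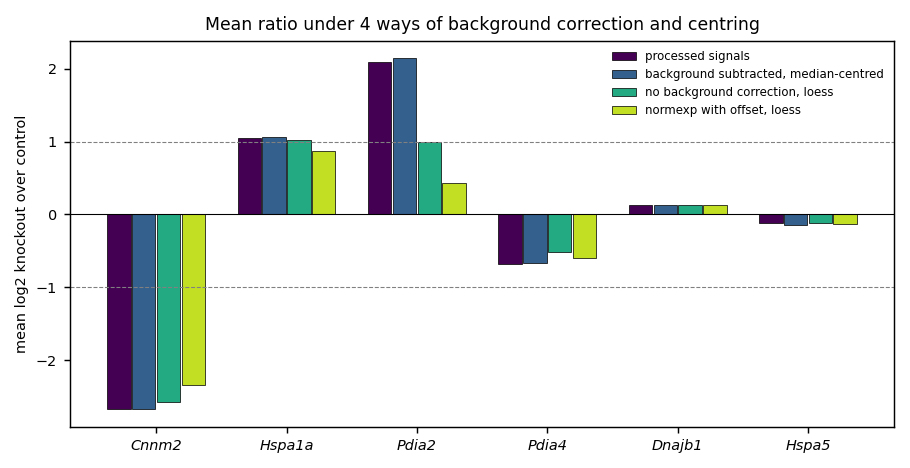
Mean log2 ratio of knockout over control for *Cnnm2* and 5 chaperone genes under 4 ways of correcting the background and centring the arrays, with dashed lines at 2-fold. *Cnnm2*, *Hspa1a* and *Pdia4* kept their sign and much of their size, and *Pdia2* went from 2.09 with processed signals to 0.44 with normexp and an offset.

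*Pdia4* (ERp72), at the other end, followed the dyes. Its signals were 80.8 for knockout against 1035 for control RNA on array 1, and 884 against 176 on array 2. The control was far above the knockout on array 1 and far below it on array 2, so that the green channel was brighter each time. The ratios of -3.68 and 2.33 gave a mean of -0.67 ± 4.25, and the gene was not counted because its arrays had opposite signs. The contrast between the dyes was 8.02-fold for this probe, and only 7 of the 19708 genes measured had a larger one.

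**Figure D4:**
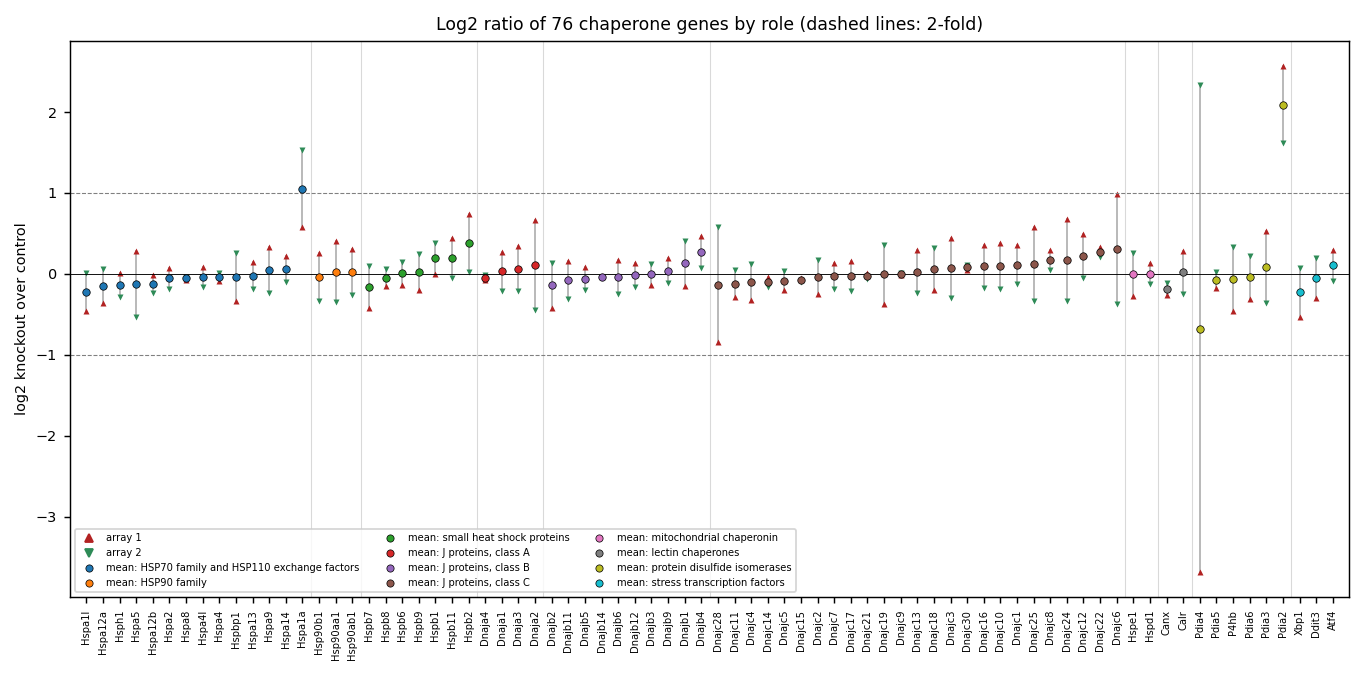
Log2 ratio of knockout over control (y axis) of the 76 chaperone genes measured, grouped by role and ordered by the mean within a role: array 1 (red triangles), array 2 (green triangles) and their mean (circles), with dashed lines at 2-fold. *Hspa1a* and *Pdia2* have means above the upper line, and the arrays of *Pdia4* lie on opposite sides of 0.

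Repeated probes of 1 gene showed the same kind of dye effect. For 23 members at least 2 probes were well above background, and the means of a gene's probes lay a median of 0.13 apart, at most 0.50 (*Dnajc11*). The dye contrasts lay up to 1.84 apart on the log2 scale (*Dnaja4*). *Hspa8* had 3 probes: the brighter ones had ratios of -0.071 and -0.035 and of 0.11 and -0.16, and the last one -1.32 and 1.84. The second probes of *Dnaja4*, with -1.48 and 2.25, and of *Dnajc11*, with -0.83 and 1.58, turned the same way. All 3 were dimmer than their gene's first probe and brighter in green. *Dnajc5* was the one member with probes of opposite sign and at least 1.5-fold apart, -0.082 against 0.76, and the latter was not well above background. *Dnajc11*'s first probe was printed 10 times, and the SD of its ratio over spots was 0.046 on array 1 (9 spots used) and 0.046 on array 2, below the SD between arrays of 0.23.

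**Figure D5:**
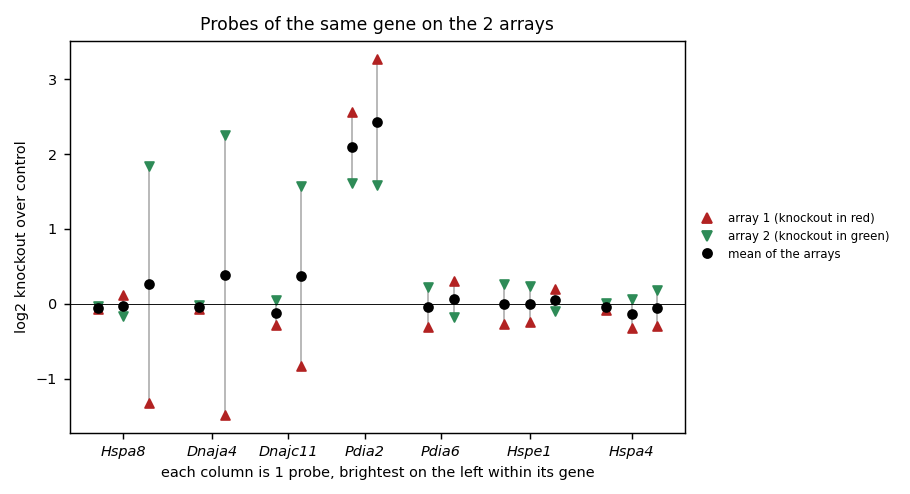
Log2 ratio of knockout over control of every probe of 7 chaperone genes on array 1 (red), array 2 (green) and as their mean (black), the brightest probe of a gene on the left. The last probe of *Hspa8*, *Dnaja4* and *Dnajc11* spreads with the dyes, while both probes of *Pdia2* lie above 0 on both arrays.

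The transcription factors of the stress responses were not counted either. *Xbp1*, whose spliced form drives ER chaperone genes, had signals of 18969 for knockout against 27441 for control RNA on array 1, and 17947 against 16995 on array 2. Its ratios of -0.53 and 0.079 gave -0.23 ± 0.43, the lowest of the 3, and whether its probe tells the spliced from the unspliced form was not tested. *Ddit3* (CHOP), which rises under lasting ER stress, had -0.30 and 0.20 (mean -0.049 ± 0.35), and *Atf4* 0.30 and -0.092 (mean 0.11 ± 0.28). Protein levels, splicing and translation, through which XBP1 and ATF4 are mainly controlled, were not measured.

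Genes outside the naming rule that work in the same pathways were looked at as 5 lists, chosen with earlier results of these data known. Among all genes measured, 1% were 1.5-fold higher and 1.06% lower. Of 27 measured genes of the HSF1 axis and HSP70/HSP90 co-chaperones, 1 was counted as 1.5-fold higher and 0 lower, with a median of -0.035. It was *Cryab* (αB-crystallin), a small heat shock protein without the Hspb name, with signals of 19399.5 for knockout against 13347 for control RNA on array 1, and 17278 against 11024 on array 2. The ratios of 0.54 and 0.65 (mean 0.59 ± 0.077) were of similar size on both arrays. Of 14 genes of the CCT chaperonin and prefoldin, which fold actin and tubulin, 0 were counted, with a median of 0.029. Likewise 0 of 16 mitochondrial folding and protease genes were counted, with a median of 0.0019.

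In the list of 36 genes of ER folding, ER-associated degradation and unfolded protein response targets, 0 were counted in either direction and the median was 0.0075. The list of 29 measured sensors and effectors of the unfolded protein and integrated stress responses held 2 genes counted as higher at 1.5-fold and 0 lower. Among all genes measured these shares were 1% and 1.06%. The median of the list was 0.046. *Ddit4* (REDD1), a stress-induced inhibitor of mTORC1, had signals of 9393 for knockout against 3106 for control RNA on array 1, and 8483 against 4421 on array 2, with ratios of 1.60 and 0.94 (mean 1.27 ± 0.46). *Nupr1*, a small stress-induced nuclear protein, had 4774 and 3996 in the knockout and 2670.5 and 2514 in the control, with ratios of 0.84 and 0.67 (mean 0.75 ± 0.12). Knockout exceeded control for both genes on both arrays. Of these 29 genes, 11 were higher on both arrays at any size and 2 were lower, against the shares of 12.1% and 15.6% among all genes. With plain background subtraction and median-centred arrays these counts were 12 and 4, against shares of 11% and 13.1% among all genes. The list was chosen with earlier results of these data known, so no shift of the pathway is read from these counts.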

How the data were processed

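Kidney RNA of both genotypes was measured on 2 two-colour Agilent 4x44K v2 mouse arrays with exchanged dyes. Per the file headers, the authors' scanner files were made with Agilent Feature Extraction 10.7.3.1 (10.5.1.1 in the submitters' processing notes) and hold background-subtracted, dye-normalized intensity values per spot and a log10 ratio of red over green; the deposited series table holds log10 ratios that differ from the scanner's by at most 0.0049. Log2 ratios of knockout over control were computed from the deposited processed intensities, turned by the dye labels. Spots marked as outliers were left out, spots of a probe averaged, and the brightest probe of a gene kept. Genes were counted by a rule of size: 2-fold or 1.5-fold in the mean and the same sign on both arrays. Array number limits the precision. Both arrays lie on 1 slide.

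The members, gene lists and groupings were chosen with earlier results of these data known. Named genes were those counted at 1.5-fold, the highest and lowest of each role, and a core set of well-known chaperones. Alternatives were normexp (offset 50) with loess, background subtraction (floor 1), no background correction, the scanner's and the series table's ratios, other limits on dim probes, marked spots kept, the median over probes, each array alone, the methods' t-test and limma 3.58.1 (R 4.3.3). Python 3 libraries numpy, pandas and scipy were used, and the counting rule was tested on simulated data. All 84 member names were symbols of the RefSeq table. Probe positions are those of the file headers' build mm9, and promoter windows those of RefSeq on GRCm38.p6. A mouse annotation on mm9 was not used here, so exons are not given. 1 kidney marker of the planned list is not reported here.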

Additional observations from a re-analysis of the deposited data

How the results depend on the processing

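The count of chaperone genes 2-fold higher was 2 in the report and also 2 with background-subtracted signals, without background correction, with the scanner's and the series table's ratios, without a limit on dim probes, with the limit in both genotypes, with marked spots and with the median over probes, *Hspa1a* and *Pdia2* each time. The count over all genes varied more: 62 of 19708 were 2-fold higher in the report and with the scanner's and the series table's ratios. It was 69 with background-subtracted signals and 12 without background correction. With the limit in both genotypes it was 37 of 18921, with marked spots 64 of 19714 and with the median over probes 67 of 19715. Without a limit on dim probes 232 of all 31821 genes were 2-fold higher. With normexp, an offset of 50 and loess the count was 0, where 7 of the 19708 genes measured were higher, and 1 (*Hspa1a*) at 1.5-fold. An offset draws the ratio of a dim spot toward 0. With the fold reached on each array the count was 1 at 2-fold and 1 at 1.5-fold, *Pdia2*. By the methods' t-test at their threshold, joined to the 2-fold limit, the count was 0. It was also 0 after Benjamini-Hochberg and by limma at an adjusted p under 0.05. The counts at an unadjusted p that follow leave out the fold limit. At an unadjusted p under 0.05 the t-test gave 0 and limma 2 of the 76 genes. Of all 19708 genes measured, the t-test gave 486 and limma 256. These tests take the arrays as replicates. The same rule was applied, as a choice made after seeing the data, to red over green in place of the genotypes: 0 genes were 2-fold higher in red and 1 was lower, *Pdia4*. These red over green counts are not set against all genes, so they give no rate to compare with. With 1 array left out the 2-fold count ranged from 2 to 3 higher and was 1 lower either way. At 1.5-fold it ranged from 3 to 6 higher and from 1 to 2 lower. Over all genes, array 1 alone gave 1098 of 21548 higher and 633 lower at 2-fold. Array 2 alone gave 576 of 21319 higher and 882 lower. The 1.5-fold counts of 1 array are not set against all genes here. Array 1 alone gave *Pdia4* and *Dnajc28* lower and not *Hspa1a*, and array 2 alone gave *Pdia4* higher and *Dnajc27* lower. *Pdia4*, *Dnajc28* and *Dnajc27* each had the opposite sign on the other array. *Dnajc27*, with 1.16 and -2.35, was not well above background over both arrays. The median ratio of the members lay between -0.016 and 0.011 in the 10 alternatives that use both arrays, and at -0.054 and 0.083 with 1 array. Of 693 values of single genes under settings that use both arrays, *Cnnm2* included, 680 moved by less than the array SD and 0 called values turned sign. This is a weak check: the limits on dim probes could not move a value, and the array SD is large where the dyes oppose each other. Genes higher and lower on both arrays at any size, an alternative added after seeing the data, were 7 and 7 with processed signals, 5 and 5 with background-subtracted signals, 7 and 6 without background correction, and 7 and 4 with normexp. In the same order, the shares among all genes measured were 12.1% and 15.6%, 11% and 13.1%, 13.5% and 13.9%, and 15.6% and 12%. The dim signal of *Pdia2* limits its ratio.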

Other observations

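The genes beside *Hspa1a* and *Pdia2*, both on chromosome 17, were looked at by their order in the RefSeq gene table. *Hspa1l*, next to *Hspa1a*, had ratios of -0.45 and 0.016, *Lsm2* -0.021 and -0.10 and *Neu1* 0.35 and 0.051. *Arhgdig*, next to *Pdia2*, had ratios of 0.66 and 0.18, higher on both arrays and under the 1.5-fold limit, and the next measured genes on either side had -0.53 and 0.60 (*Axin1*) and -0.10 and 0.36 (*Rgs11*).

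A further 12 probes were described as heat shock, DnaJ or disulfide isomerase transcripts under other names, of which 4 were well above background. Their mean ratios lay between -0.096 and -0.030, and 0 were counted. Of the cold-inducible RNA-binding protein genes, *Cirbp* had ratios of 0.40 and 0.15 and *Rbm3* of 0.38 and -0.20.

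In the list of ER folding genes, *Sdf2l1*, a partner of BiP and the J protein ERdj3, had the lowest mean, -0.77 ± 1.72, with ratios of -1.99 and 0.45. Like *Pdia4*, it was brighter in green on both arrays and was not counted. *Hyou1*, the HSP110 of the ER, was dim, with -0.73 and 0.80.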
